A study of Homo sapiens with 6 samples.

Results

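The kinesin genes comprised every protein-coding gene of the count table with a symbol of the KIF, KIFC or KLC series and a mean of at least 5 counts over the libraries, which gave 42 of the 28491 genes in the table. The symbol pattern matched 44 protein-coding genes, and KIF25 (mean 0.333 counts) and KIF4B (mean 0.833 counts) fell below the minimum, while KIF1A (6.5), KIF7 (8) and KIF19 (11.5) were the members nearest above it. The members were divided into 13 mitotic kinesins, 20 transport kinesins with their light chains, and 9 ciliary and other kinesins. CENPE, a mitotic kinesin with a symbol outside the pattern, was counted among the spindle partners.

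Poly(A) RNA was sequenced from HCT116 cells, a human colorectal carcinoma line, at 3 libraries per group. The cells received either a control plasmid (NC) or a plasmid carrying RBM47 (RBM47-OE), an RNA-binding protein that acts on splicing and mRNA stability. They were transfected with a lipid reagent, and the labels give harvest after 48 h. The labels and the study's methods describe the plasmid backbone, medium and library kit differently, and the share of cells that took up the plasmid was not analysed here. Nothing in the labels says whether the 3 libraries of a group came from separate cultures, so p-values measure only the spread between these libraries.

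The library totals ran from 26792409 to 35477983 counts, of which 54547 to 70697 fell on the members. RBM47 stood at 1.91, 2.33 and 1.94 FPKM (fragments scaled to gene length and to the mapped fragments of the library) in NC and at 131.3, 130.41 and 127.04 FPKM in RBM47-OE. The log2 fold change of RBM47 was 5.90 (SE 0.096, adjusted p = 1.7e-25, edgeR quasi-likelihood test, n = 3 per group), with the labels and the measured levels in the same order. RBM47-OE replicate 1 stood apart from the other libraries of its group. Over all genes tested, its median absolute log2 difference was 0.185 from replicate 2 and 0.194 from replicate 3, against 0.138 between those replicates and 0.102 to 0.107 among the NC libraries. Of the colon epithelial markers, KRT8, KRT18, EPCAM, CDH1 and CDX2 were expressed, whereas VIL1, CDX1 and LGALS4 stayed at or below 0.09 FPKM in all libraries. Of 10 markers of other cell types, 3 had no row, and the rest summed to between 1.53 and 2.0 FPKM per library.

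Kinesins are motor proteins that hydrolyse ATP to walk along microtubules or to take them apart at their ends. The mitotic kinesins build the spindle, align and separate the chromosomes and organise the midzone where the cell divides, and in cycling cells their transcripts accumulate towards G2 and mitosis. Transport kinesins carry vesicles, mitochondria and endosomes, and those of the kinesin-1 type work as a pair of heavy chains (KIF5A, KIF5B, KIF5C) with a pair of light chains (KLC1 to KLC4).

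All motors of the family share the P-loop, a short glycine-rich stretch that holds the phosphates of ATP. The 24 coding bases of this stretch are shown for members that rose and members that fell, since the same protein motif is written in them with different bases. Capitals mark a G or C at the third position of a codon. KIF11 (chr10:92607163-92607186, plus strand), KIF20B (chr10:89710029-89710052, plus strand) and KIF18A (chr11:28094766-28094789, minus strand) were higher in RBM47-OE, and KIF20A (chr5:138182425-138182448, plus strand), KIF18B (chr17:44935382-44935405, minus strand) and KIFC1 (chr6:33405323-33405346, plus strand) were lower. All are exonic coding windows of GRCh38 in the GENCODE 44 annotation, each within 1 exon.
KIF11: ggCcaaactggCactggaaaaact
KIF20B: ggGctaacCaattcaggaaaaaca
KIF18A: ggtgcCactggtgctggGaaGacC
KIF20A: ggagtCactaaCtcaggGaaaacC
KIF18B: ggGgcCacCggGgctggGaaGaca
KIFC1: ggCcaGacaggCagtggCaaGacC
KIF11 and KIF20B carry a G or C at 2 of these 8 codon positions, KIF18A and KIF20A at 4, and KIF18B and KIFC1 at 6. KIF18A and KIF18B differ at 4 of these 24 bases and at 0 of the 8 residues, so the same P-loop is spelled with more G and C in KIF18B. KIF20A and KIF20B differ at 7 bases and 1 residue. Over the whole coding sequence, a G or C stood at the third position of 30.7% of codons in KIF18A and 74.3% in KIF18B. A P-loop window of this kind was found in 36 members. It was absent from KIF26A and KIF26B, which are atypical kinesins without motor activity, and from the light chains KLC1, KLC2, KLC3 and KLC4, which are not motors.

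The first question was whether the mitotic kinesins differed between RBM47-OE and NC. They did not move as a block, since 7 of the 13 were higher, 4 were lower and 2 did not pass the test. KIF15, KIF2A, KIF11, KIF14, KIF18A, KIF20B and KIF23 rose by 0.24 to 0.49 on the log2 scale, and KIFC1, KIF22, KIF20A and KIF18B had log2 fold changes between -0.38 and -0.29. Calls were made at an adjusted p below 0.05 over 16260 genes tested. At that threshold 19.1% of all genes tested were higher and 16.9% were lower, against 53.8% and 30.8% of the mitotic kinesins. With an offset for GC content, given further on, 0 of the 13 were higher, the median of the class was -0.03, and KIF20B and KIF23 turned direction. In log2 CPM (counts scaled to the library), 15 of the 41 members tested lay higher in RBM47-OE without overlap between groups and 8 lay lower, as did 23.2% and 23.4% of all genes tested. The median log2 fold change of the mitotic class was 0.24, compared with 3.96e-05 over all genes. In bulk RNA, a change in the share of cells in mitosis and a change of transcript level per cell cannot be told apart.

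Among the motors of spindle assembly, KIF11, the motor that slides the spindle poles apart, stood at 7.18, 7.4 and 6.8 FPKM in NC and at 8.39, 10.94 and 11.06 FPKM in RBM47-OE. The groups did not overlap, and RBM47-OE replicate 1 was the nearest to NC. The log2 fold change of KIF11 was 0.43 (SE 0.087, adjusted p = 0.000537). KIF15, which can take over the pole-separating work of KIF11, rose from 2.11, 2.01 and 2.1 FPKM to 2.5, 3.36 and 3.34 FPKM. This was the highest fold change of the class, at 0.49 on the log2 scale (SE 0.111, adjusted p = 0.00147), and the groups did not overlap.

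KIFC1, a motor that walks towards microtubule minus ends and gathers extra centrosomes into spindle poles, moved in the other direction. Its level was 35.98, 37.56 and 36.74 FPKM in NC and 30.72, 29.55 and 28.56 FPKM in RBM47-OE, with no overlap. The log2 fold change was -0.38 (SE 0.070, adjusted p = 0.000238). KIFC1 was the most abundant mitotic kinesin in NC (36.8 ± 0.790 FPKM, mean ± SD, n = 3), followed by KIF22 at 35.3 ± 1.17 FPKM.

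**Figure D1:**
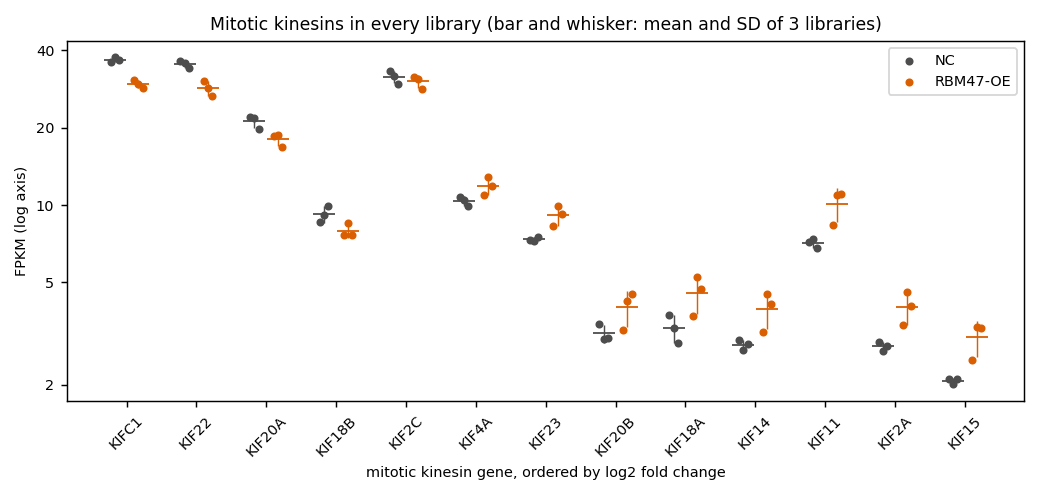
FPKM (log axis) of the 13 mitotic kinesins in the 3 NC (grey) and 3 RBM47-OE (orange) libraries, with a horizontal bar at the mean and a whisker of 1 SD, ordered by log2 fold change. KIFC1, KIF22, KIF20A and KIF18B at the left lie lower in RBM47-OE, while KIF23 to KIF15 at the right lie higher, with the lowest orange point of most of these being replicate 1.

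The chromosome-bound motor KIF22, which pushes chromosome arms away from the poles, was 36.3, 35.5 and 34.0 FPKM in NC and 30.42, 28.49 and 26.45 FPKM in RBM47-OE. All 3 RBM47-OE values lay below the NC values, and the log2 fold change was -0.38 (SE 0.073, adjusted p = 0.000376). KIF4A, the other chromosome motor, which also shortens midzone microtubules, did not pass the test (0.12 on the log2 scale, 95% interval -0.02 to 0.27, adjusted p = 0.211). Its FPKM values of 10.77, 10.42 and 9.87 in NC and 10.96, 12.8 and 11.83 in RBM47-OE did not overlap. In log2 CPM the groups did overlap, with NC replicate 1 (0.065 from the NC mean) above RBM47-OE replicate 1 (0.044). KIF4A has a near-identical copy, KIF4B, with 95.7% of coding bases in common, and KIF4B held 0 counts in every NC library and 2, 1 and 2 counts in RBM47-OE. Only uniquely mapped reads were counted, so reads that fit both copies equally would be missing from both. The size of such a loss was not tested.

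Motors that shorten microtubules gave both directions. KIF2A, which takes microtubules apart at spindle poles and also acts outside mitosis, rose from 2.93, 2.7 and 2.84 FPKM to 3.41, 4.59 and 4.07 FPKM, with a log2 fold change of 0.44 (SE 0.086, adjusted p = 0.000437). Its relative KIF2C, which corrects faulty attachments at kinetochores, was 33.03, 31.83 and 29.58 FPKM in NC and 31.55, 30.82 and 28.35 FPKM in RBM47-OE, and these values overlapped (adjusted p = 0.178). The exons of KIF2A overlap those of DIMT1 on the opposite strand over 18.7% of their length, and the strand setting of the counting is not given in the sources used here. KIF18A, which damps the movement of aligned chromosomes, was called higher although its lowest RBM47-OE value (3.7 FPKM in replicate 1) lay under its highest NC value (3.74 FPKM in replicate 1). KIF18B, which acts at the tips of astral microtubules, was called lower, with 8.56, 9.11 and 9.95 FPKM in NC and 7.68, 8.5 and 7.62 FPKM in RBM47-OE.

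The motors of the midzone and of cytokinesis were split in the same manner. KIF20A, which brings the chromosomal passenger complex to the midzone, was 21.89, 21.7 and 19.8 FPKM in NC and 18.6, 18.7 and 16.78 FPKM in RBM47-OE (log2 fold change -0.30). KIF23, which bundles midzone microtubules together with RACGAP1, rose from 7.31, 7.22 and 7.54 FPKM to 8.27, 9.88 and 9.26 FPKM. KIF14, which is needed for the final cut between daughter cells, rose from 2.99, 2.73 and 2.89 FPKM to 3.22, 4.53 and 4.12 FPKM. These groups did not overlap. KIF20B, a further cytokinesis motor, was called higher but overlapped, at 3.46, 3.02 and 3.03 FPKM against 3.28, 4.23 and 4.51 FPKM.

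The higher and lower mitotic kinesins were then summed. The 7 higher genes together made 29.72, 28.41 and 28.12 FPKM in NC and 32.77, 42.76 and 41.08 FPKM in RBM47-OE. The 4 lower genes made 102.73, 103.87 and 100.49 FPKM in NC and 87.42, 85.24 and 79.41 FPKM in RBM47-OE. The whole class summed to 168.06 to 176.25 FPKM in NC and 160.67 to 171.62 FPKM in RBM47-OE, and the groups overlapped.

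The libraries of the RBM47-OE group did not contribute equally. Replicate 1 was the RBM47-OE library nearest to the NC level in 13 of the 15 members called higher and in 6 of the 7 called lower. Its median log2 difference from the NC mean over the 15 higher members was 0.18, compared with 0.51 in replicate 2 and 0.45 in replicate 3. Without replicate 1, 8 mitotic kinesins were higher and 5 lower, KIF4A and KIF2C being added. Without RBM47-OE replicate 2, 4 mitotic kinesins were called higher, namely KIF11, KIF14, KIF15 and KIF2A. The SE changed between these fits, for KIF11 from 0.087 with all libraries to 0.065 without replicate 1 and 0.098 without replicate 2. The share of all genes called in the fits without a library was not compared with these counts.

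**Figure D2:**
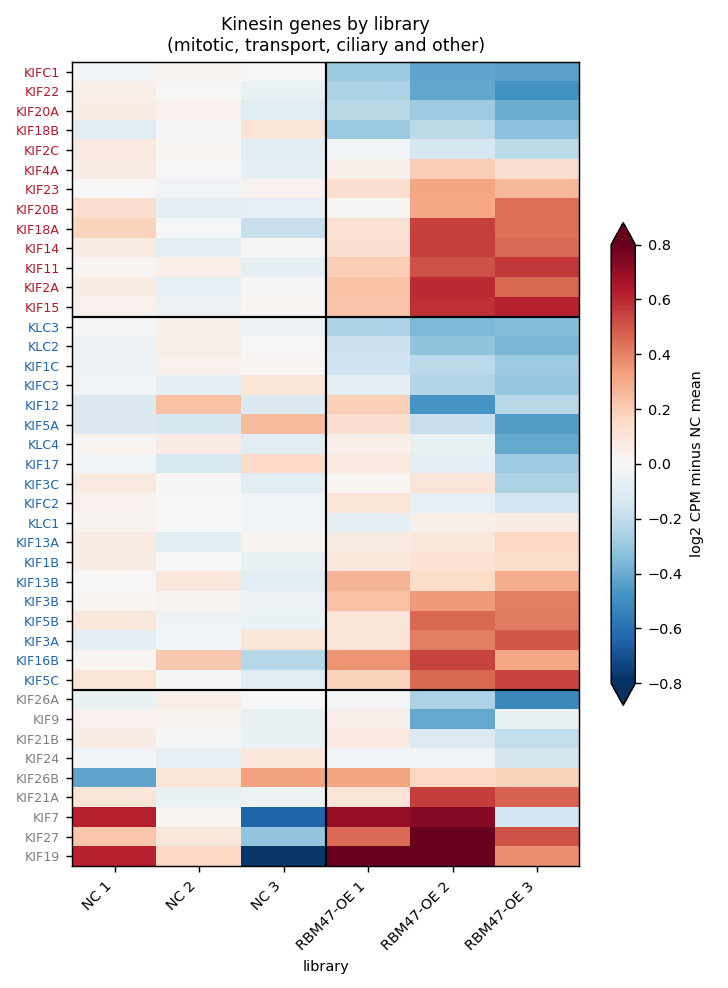
Log2 CPM of each of the 41 members tested minus its NC mean, per library, with mitotic (red names), transport (blue) and ciliary and other (grey) kinesins ordered by log2 fold change within each class; colours are capped at 0.8 in either direction. RBM47-OE replicate 1 is paler than replicates 2 and 3 for most of the called members.

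Of the transport kinesins, 19 of 20 passed the low-count filter, and 6 were higher, 3 lower and 10 not called. KIF1A, the neuronal carrier of synaptic vesicle precursors, was not tested, with 8, 2 and 9 counts in NC and 8, 12 and 0 in RBM47-OE. The share called higher was 31.6% against the 19.1% over all genes, while the share called lower, 15.8%, was near the 16.9% over all genes. The median log2 fold change of the 19 genes was -0.03.

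Kinesin-1, the general carrier of vesicles and mitochondria, had 2 heavy chains called higher and 2 light chains called lower. The difference between the subunits was not tested. With a GC offset, described further on, kinesin-1 lost these calls (KIF5B 0.02, KIF5C 0.23, KLC3 -0.11 and KLC2 -0.06 on the log2 scale). Of its heavy chains, KIF5B, the widely expressed one and the most abundant transport kinesin here, was 29.14, 26.89 and 26.59 FPKM in NC and 30.31, 40.69 and 38.55 FPKM in RBM47-OE. The groups did not overlap, and the log2 fold change was 0.33 (SE 0.082, adjusted p = 0.00274). KIF5C, a largely neuronal heavy chain, was expressed at a far lower level of 0.34, 0.32 and 0.30 FPKM in NC and 0.37, 0.47 and 0.49 FPKM in RBM47-OE (log2 fold change 0.40, SE 0.112, adjusted p = 0.00671). KIF5A, the other neuronal heavy chain, overlapped between groups (0.810 ± 0.130 against 0.763 ± 0.145 FPKM, mean ± SD, n = 3 each).

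Of the light chains, which bind the cargo, 2 were lower and 2 were not called. KLC3 fell from 11.13, 11.67 and 10.98 FPKM to 9.71, 9.45 and 9.28 FPKM, with a log2 fold change of -0.32 (SE 0.078, adjusted p = 0.00246). KLC2 fell from 11.22, 12.06 and 11.64 FPKM to 10.62, 10.03 and 9.47 FPKM, with a log2 fold change of -0.28 (SE 0.075, adjusted p = 0.00445). Neither overlapped between groups. KLC1 (0.01 on the log2 scale, 95% interval -0.12 to 0.15) and KLC4 (-0.13, 95% interval -0.36 to 0.10) were not called. KLC1 shares 29.9% of its exonic bases with XRCC3 and KLC3 shares 14.6% with ERCC2, both on the opposite strand. XRCC3 (-0.33) and ERCC2 (-0.27) were themselves called lower, so that for KLC1 and KLC3 the part of the neighbouring gene in the value was not tested.

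Both partners of the KIF3A/KIF3B motor, the kinesin-2 that drives transport into cilia and also carries vesicles, were called higher. KIF3B stood at 10.75, 10.93 and 10.37 FPKM in NC and at 12.9, 14.59 and 14.84 FPKM in RBM47-OE, without overlap (log2 fold change 0.33, SE 0.072, adjusted p = 0.00107). KIF3A was 2.26, 2.36 and 2.57 FPKM against 2.65, 3.43 and 3.55 FPKM. Its call was lost without NC replicate 1, NC replicate 2, RBM47-OE replicate 2 or RBM47-OE replicate 3, and with a GC offset, described further on, its log2 fold change was 0.001 while that of KIF3B was 0.32. KIFAP3, the adaptor that completes this motor, rose as well (0.31 on the log2 scale, adjusted p = 0.0141), and was named after its values were seen. With the GC offset KIFAP3 was not called (0.02, adjusted p = 0.923). KIF3C (-0.04) and KIF17 (-0.09), the other kinesin-2 subunits, were not called.

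Among the kinesin-3 motors, KIF16B, which moves early endosomes, was higher at 1.16, 1.38 and 1.14 FPKM against 0.88, 1.02 and 0.75 FPKM in NC. KIF13B was higher at 3.07, 2.95 and 3.19 FPKM against 2.46, 2.64 and 2.32 FPKM, and here replicate 2, not replicate 1, lay nearest to NC. KIF1C, which carries vesicles and mRNA, was lower at 22.25, 22.58 and 20.95 FPKM against 23.43, 24.94 and 24.57 FPKM. KIF1B (0.11) and KIF13A (0.11) were not called although their groups did not overlap. The minus-end motors KIFC3 (-0.20, adjusted p = 0.0533) and KIFC2 (-0.03) were not called either, and nor was KIF12 (-0.16). The call of KIF16B, KIF3A and KIF13B was lost without NC replicate 1, which left 3 transport kinesins higher.

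**Figure D3:**
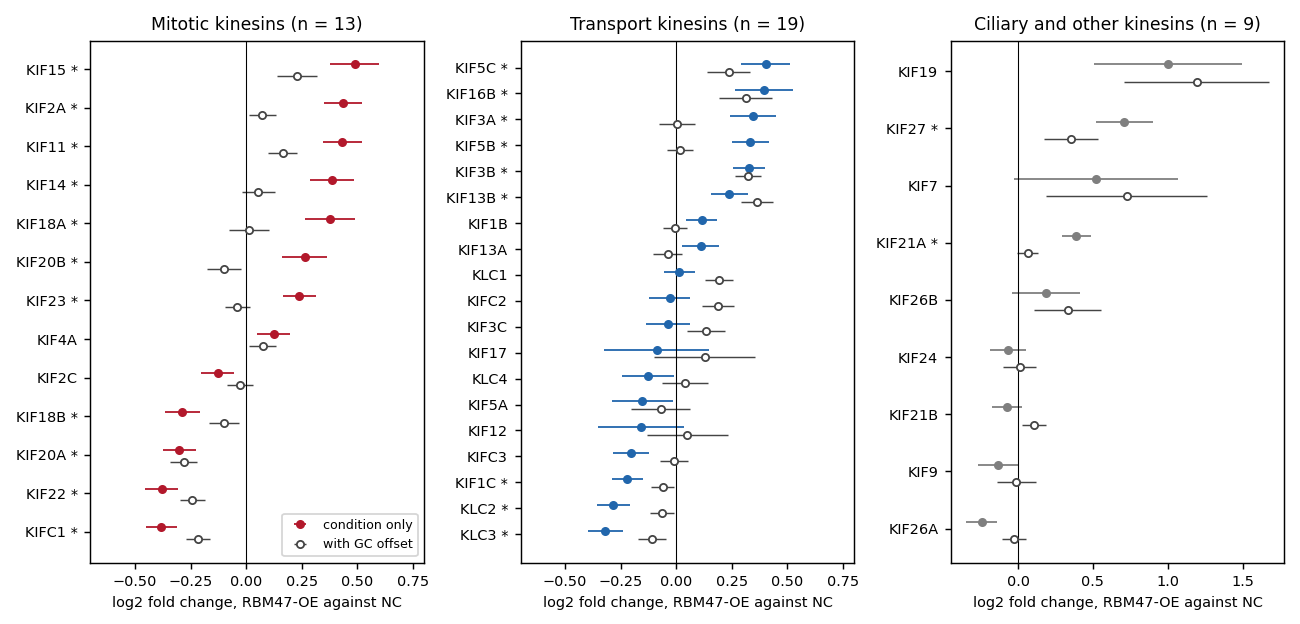
Log2 fold change of RBM47-OE against NC with 1 SE for the 41 members tested, from the fit with condition only (filled) and from the fit with a GC offset per library (open); an asterisk marks an adjusted p below 0.05 in the first fit. The filled points of the mitotic class spread from -0.38 to 0.49, and most open points lie nearer to 0, with KIFC1, KIF22 and KIF20A staying to the left.

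Of the 9 ciliary and other kinesins, KIF27 and KIF21A were higher and 7 were not called. The share called higher, 22.2%, was near the 19.1% over all genes, and 0% were called lower against 16.9% over all genes. KIF27, a relative of the Hedgehog regulator KIF7 found at cilia, was 0.40, 0.37 and 0.28 FPKM in NC and 0.49, 0.80 and 0.52 FPKM in RBM47-OE, which rested on 71 to 114 counts in NC and 128 to 214 in RBM47-OE. Its log2 fold change of 0.71 (SE 0.190, adjusted p = 0.0051) made it the only member that passed the thresholds of the study, an unadjusted p below 0.01 and a fold change above 1.5, which 1.51% of all genes tested passed upwards and 0.873% downwards. When NC replicate 3 or RBM47-OE replicate 2 was left out, 0 members passed those thresholds. When RBM47-OE replicate 1 was left out, KIF27 and KIF15 passed them. KIF21A, which restrains microtubule growth, rose from 3.02, 2.75 and 2.77 FPKM to 3.16, 4.49 and 4.13 FPKM (log2 fold change 0.39, SE 0.096, adjusted p = 0.00272).

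Of the others, KIF19, which limits the length of cilia, had the highest estimate of all members (1.00 on the log2 scale) with an SE of 0.492 and an adjusted p of 0.116. It held 10, 9 and 3 counts in NC and 18, 20 and 9 in RBM47-OE, which overlapped in counts, as did KIF7 with 9, 7 and 3 against 12, 12 and 5. The cilium-related KIF9 (-0.13) and KIF24 (-0.07), the growth regulator KIF21B (-0.07) and the atypical KIF26A (-0.24, adjusted p = 0.0691) and KIF26B (0.19) were not called.

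The direction of the changes was then compared with base composition, since the members that rose and fell differed in it. Exonic GC content was 34.3% to 41.1% in the 7 higher mitotic kinesins and 48.4% to 58.4% in the 4 lower ones, with no overlap. The uncalled KIF4A (46.6%) and KIF2C (51.3%) lay near the median of 49.0% over all genes tested. The higher transport kinesins ranged from 37.9% to 52.5% and the lower ones from 54.9% to 62.9%. The Spearman correlation of log2 fold change with exonic GC content was -0.74 over the 13 mitotic and -0.73 over the 19 transport kinesins, and it was -0.63 over 16233 genes (these are across genes, which share the libraries and are not replicates). In the twentieth of all genes with the lowest GC content (median 36.4%) the median log2 fold change was 0.38, and in that with the highest (65.9%) it was -0.24.

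**Figure D4:**
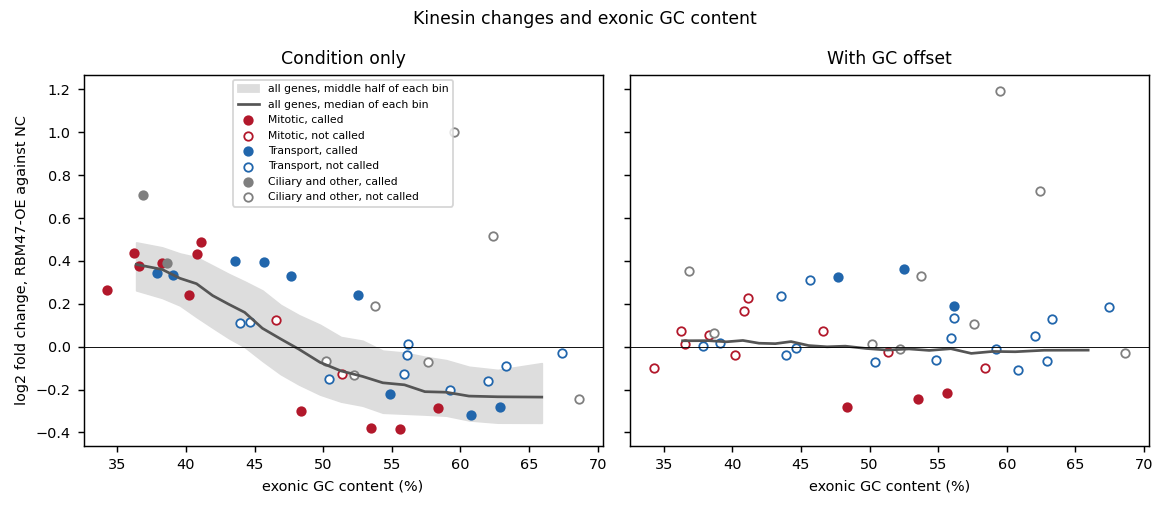
Log2 fold change against exonic GC content (%) for the 41 members tested, without (left) and with (right) a GC offset; filled points are called at an adjusted p below 0.05, the line joins the medians of 20 bins of all genes and the band, drawn at left, spans the 25th to 75th percentile of each bin. At left the mitotic kinesins follow the falling line, and KIFC1, KIF22 and KIF20A lie below it in both panels.

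When each library was given an offset for its GC trend, 17 of the 22 calls were lost. With this offset 6% of all genes tested were called higher and 8.46% lower. Of the mitotic kinesins 0 were higher and 3 were lower, namely KIFC1 (-0.22 on the log2 scale, adjusted p = 0.00799), KIF22 (-0.24, adjusted p = 0.0062) and KIF20A (-0.28, adjusted p = 0.00312). The median of the class changed from 0.24 to -0.03. KIF11 (0.16, adjusted p = 0.0915) and KIF15 (0.23, adjusted p = 0.0972) kept their direction without passing the test. KIF14 (0.05), KIF2A (0.07) and KIF18A (0.01) lay near 0, and KIF20B (-0.10) and KIF23 (-0.04) turned direction. KIF18B (-0.10, adjusted p = 0.368) was no longer called lower. Whether the GC trend came from the transfected cells or from the libraries was not tested. At the thresholds of the study, 0 members were called with the offset, against 0.48% of all genes tested upwards and 0.535% downwards. Without RBM47-OE replicate 1, the offset fit called the mitotic KIF11 and KIF15 higher and the same 3 genes lower. The share of all genes called in that fit was not compared.

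Of the transport kinesins, KIF3B (0.32, adjusted p = 0.000765) and KIF13B (0.36, adjusted p = 0.00159) were higher with the offset as without it. KLC1 (0.19, adjusted p = 0.0453) was called with the offset only. KIF5B (0.02), KIF3A (0.001), KLC3 (-0.11), KLC2 (-0.06) and KIF1C (-0.06) were no longer called, nor were KIF5C (0.23), KIF16B (0.31), KIF27 (0.35) and KIF21A (0.06).

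Within families, the ratio of 2 related genes in each library gave a view that does not depend on library size. Symbols that share a number and differ in the last letter formed 13 pairs, and the ratios did not overlap between groups in 7 of them. Among 1164 such pairs of all protein-coding genes tested, 50.7% did not overlap, so the count of kinesin pairs was near the background. Each of these 7 had an exact permutation p of 0.10 (two-sided), the smallest that 3 against 3 libraries allow, and 0.186 after adjustment over the 13 pairs. The KIF18A to KIF18B ratio of FPKM values was 0.437, 0.366 and 0.293 in NC and 0.482, 0.615 and 0.619 in RBM47-OE. The KIF2A to KIF2C ratio rose from 0.0887, 0.0848 and 0.0960 to 0.108, 0.149 and 0.144 without overlap. The KIF20A to KIF20B ratio was 6.33, 7.19 and 6.53 in NC and 5.67, 4.42 and 3.72 in RBM47-OE, again without overlap. The other pairs without overlap were the transport pairs KIF1B/KIF1C and KIF3B/KIF3C, and KIF21A/KIF21B and KIF26A/KIF26B. With the GC offset, the difference in log2 fold change between the genes of a pair changed from 0.66 to 0.11 for KIF18A and KIF18B, from 0.57 to 0.10 for KIF2A and KIF2C and from -0.56 to -0.18 for KIF20A and KIF20B.

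The KIF3A to KIF3B ratio, by contrast, averaged 0.225 ± 0.0203 in NC and 0.227 ± 0.0184 in RBM47-OE (mean ± SD, n = 3 each), which overlapped. With the GC offset the log2 fold changes of these subunits were 0.001 for KIF3A and 0.32 for KIF3B, a difference of -0.32. The KIF5B to KIF5C ratio also overlapped, at 86.1 ± 2.33 against 82.4 ± 3.97. Exonic GC content was 36.6% in KIF18A and 58.4% in KIF18B, and 37.9% in KIF3A and 47.7% in KIF3B.

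**Figure D5:**
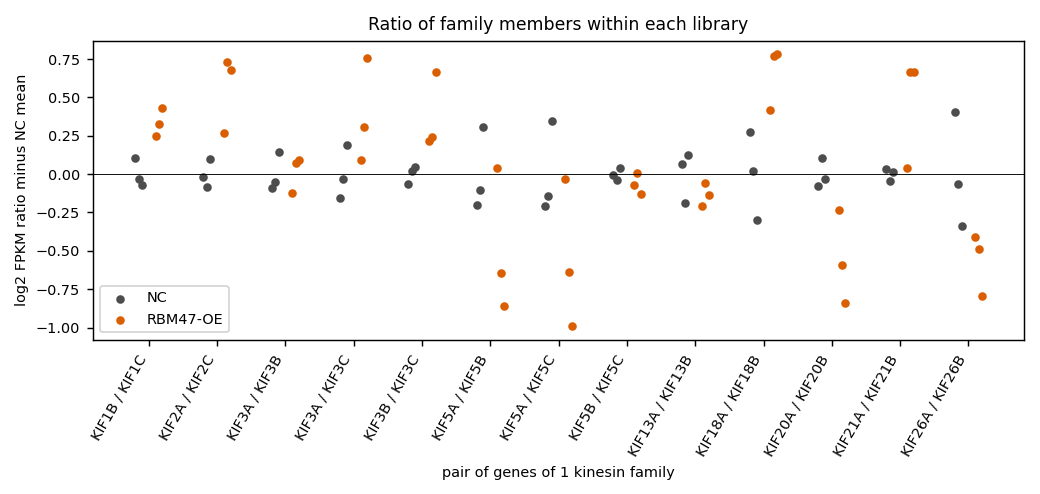
Log2 ratio of the FPKM values of 2 genes of 1 kinesin family in each library, minus the NC mean of that ratio, for 13 pairs (NC grey, RBM47-OE orange). The groups separate for KIF2A/KIF2C, KIF18A/KIF18B and KIF20A/KIF20B among the mitotic pairs and lie on each other for KIF3A/KIF3B and KIF5B/KIF5C. They also separate for the transport pairs KIF1B/KIF1C and KIF3B/KIF3C and for KIF21A/KIF21B and KIF26A/KIF26B.

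The promoters of the mitotic kinesins were searched for the cell-cycle homology region (CHR), a 6-base element through which G2 and M genes are held back in G1. RefSeq promoters of 300 bases (250 before to 50 after the start, GRCh38.p14) were matched for 31 of the 41 members tested. TTTGAA, on either strand (TTCAAA on the other), was present in 9 of 13 mitotic, 1 of 13 transport and 0 of 5 ciliary and other kinesins, against 13.2% of the 11105 tested genes with a promoter. Windows of 29 bases are shown for a pair that rose and a pair that fell, with the element in capitals and written along the strand of the gene.
KIF11, higher (chr10:92593090-92593118, plus strand): ctctgtctctttTTCAAAttgaggcgccg
KIF18A, higher (chr11:28108150-28108178, minus strand): aagtggcttgggTTTGAAtattgtggttg
KIF18B, lower (chr17:44947755-44947783, minus strand): ccgcccggctaaTTTGAAcgcaaggcgcc
KIFC1, lower (chr6:33391815-33391843, plus strand): tggccgttggaaTTCAAAagtggcgggtg
The element occurred in 6 of the 7 mitotic kinesins that were higher and in 2 of the 4 that were lower. CCAAT, on either strand, was found in 10 of 13 mitotic and 5 of 13 transport promoters, against 42.9% of the tested genes with one, and in 5 of the 7 higher and 4 of the 4 lower mitotic kinesins. A match is a string of letters in the window, not a bound site.

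The genes that work with the mitotic kinesins also moved in both directions. Of 19 spindle partners tested, 7 rose and 4 fell, and the median log2 fold change was 0.04, where 19.1% of all genes tested rose and 16.9% fell. PLK1, the kinase that prepares spindle poles and kinetochores, had a log2 fold change of -0.56 (adjusted p = 2.7e-05), AURKB, the kinase of the passenger complex carried by KIF20A, -0.34 (adjusted p = 0.00133), and ANLN, a scaffold of the cleavage ring, 0.39 (adjusted p = 0.000766). With the GC offset 0 were higher and 5 lower (6% and 8.46% of all genes), PLK1 (-0.38) and AURKB (-0.18) among the latter. ANLN (0.10) was no longer called. CENPE, the mitotic kinesin outside the symbol pattern, was not called without the offset (0.04, adjusted p = 0.803). With the offset CENPE was lower (-0.32, adjusted p = 0.0195). Of 12 markers of cycling cells, 4 were higher and 4 lower (with the offset 1 and 4). TOP2A, which untangles chromosomes, was at 0.49, whereas CCNB1, the cyclin of mitotic entry, was at -0.37 and CCNF at -0.38 on the log2 scale. Of 12 S-phase markers 0 rose and 7 fell, at a median of -0.21 (with the offset 0 and 6), led by CCNE1 (-0.57), MCM2 (-0.41) and MCM5 (-0.37). The part of these markers in the levels of the mitotic kinesins was not tested.

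Of 19 partners and adaptors of transport kinesins tested, 7 rose and 3 fell, at a median of 0.01. Over all genes tested 19.1% rose and 16.9% fell, and the share of partners that fell was near the latter. RHOT1, which ties mitochondria to kinesin-1, was at 0.47 (adjusted p = 0.000151), KTN1, a kinesin receptor of the endoplasmic reticulum, at 0.46 (adjusted p = 0.000209) and MAP7D1, which recruits kinesin-1 to microtubules, at -0.34 (adjusted p = 0.000593). With the offset 1 was higher, MAP7 (0.20), and 0 were lower, against 6% and 8.46% of all genes tested. RHOT1 (0.16), KTN1 (0.09) and MAP7D1 (-0.12) were no longer called. Of 22 genes of dynein and dynactin, the motor that runs towards the minus end, 8 were higher and 5 lower (19.1% and 16.9% of all genes). DYNC1I2 was at 0.55, DYNC2LI1 at 0.59 and DYNC2I2 at -0.35 on the log2 scale. With the offset 2 of the dynein and dynactin genes were higher and 1 lower (6% and 8.46% of all genes). DYNC1I2 (0.22) stayed higher, while DYNC2LI1 (0.25) and DYNC2I2 (-0.13) were no longer called.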

How the data were processed

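All 3 NC and 3 RBM47-OE libraries were used. The authors trimmed the reads with FASTX-Toolkit, used HISAT2 for the alignment to GRCh38, and deposited raw counts of uniquely mapped reads per gene. FPKM values from the same alignments, made by the authors, were used for levels. The annotation release and strand setting are not given in the sources used here. Exonic GC content, positions and coding sequences came from GENCODE 44, matched by gene identifier for all 42 members.

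Counts were tested with edgeR 4.0.16 in R 4.3.3 (filterByExpr with a minimum count of 10 and a minimum total of 15, TMM, quasi-likelihood test, condition only), with Benjamini-Hochberg adjustment over 16260 genes. The SE is the size of the log2 fold change over the square root of F. The GC offset was a loess curve (span 0.3) per library. On simulated counts for this comparison, edgeR recovered 200 of 200 genes changed 2-fold (16086 genes). With a simulated GC trend it called 6143 genes outside those 200, and 10 with the offset (16023 genes). Those genes were shifted by the trend alone, and the offset is built to remove such a trend. Where the trend of the real libraries came from was not tested by this simulation. The 2-fold changes were put on well-counted genes only, all RBM47-OE libraries had the same trend, and both groups had the same spread. Recovery at the smaller changes of the called members was therefore not tested.

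Members and lists were chosen with earlier results of these data known. Full statistics were given for the 5 called members with the lowest p per class and those at the study's thresholds, and values for the most abundant members, calls lost with the GC offset, untested members, near-identical copies, the 3 list genes with the lowest p, and RBM47. KIF20A, KIF13B, KIFAP3, CENPE and the uncalled members were added after their values were seen. RLE factors, library totals, DESeq2 1.42.0, other count filters, the replicate block, length and GC offsets, limma 3.58.1 on log2(FPKM + 1) and log2(FPKM + 0.1), each library left out and KIF2A counted as a transport kinesin were alternatives. The GC offset without RBM47-OE replicate 1 and the background of gene pairs were added after seeing the data. Log2 CPM used a prior count of 2.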

Additional observations from a re-analysis of the deposited data

How the results depend on the processing

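RLE factors and DESeq2 on the filtered genes gave the same 15 higher and 7 lower members, library totals gave 16 and 6, and DESeq2 on all genes 14 and 7. For the 22 called members taken singly, 42 results lost their call and kept their direction under the GC settings, as did 23 on leaving out a library and 38 under the other settings. With the GC offset 17 of the 22 calls were lost: 0 mitotic, 3 transport and 0 other kinesins were higher, 0 transport kinesins were lower, the mitotic median was -0.0267 (-0.0269 with the replicate block) and 0 members passed the study's thresholds. The offset with the replicate block gave the same counts, and KIF20B (-0.0998, and -0.100 with the block) and KIF23 (-0.0403, and -0.0404 with the block) reversed. With the offset and without RBM47-OE replicate 1, 2 mitotic kinesins and 0 other kinesins were higher, 0 transport kinesins were lower, the medians were -0.0521 (mitotic) and 0.0927 (other), 0 members passed the study's thresholds, and KIF20B (-0.0595) and KIF23 (-0.0524) reversed. The length offset left 3 transport kinesins higher and 1 other kinesin lower (other median 0.0579). limma on log2(FPKM + 1) and on log2(FPKM + 0.1) each called 1 other kinesin higher and 0 at the study's thresholds, with other medians of -3.6e-05 and -0.00011. limma on log2(FPKM + 1) without a filter kept 1 of the 15 higher and 3 of the 7 lower calls. It called 0 mitotic, 1 transport and 0 other kinesins higher, 2 mitotic and 1 transport lower and 0 at the study's thresholds (other median 0.0230). With at least 10 counts in every library the other median was -0.0656. At the study's thresholds, 0 mitotic and 0 transport kinesins were called in either direction and 1 other kinesin was higher.

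Leaving out each library in turn gave 4 to 8 mitotic kinesins higher and 3 to 5 lower, 3 to 6 transport kinesins higher and 2 to 4 lower, 1 to 2 other kinesins higher and 0 to 1 lower, and 0 to 2 members higher at the study's thresholds. The medians ran from 0.17 to 0.30 (mitotic), -0.06 to 0.03 (transport) and 0.0123 to 0.226 (other). Same-numbered libraries did not deviate together (correlations of -0.060, -0.015 and -0.016), so the numbers were not read as pairs, and the replicate block added 1 other kinesin, KIF26A, to those called lower and changed no other count. The cause of these changes was not tested, and the share of all genes called in the fits without a library was not compared.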

Other observations

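Some rows related to the members lay outside the symbol rule. KIF9-AS1, transcribed opposite to KIF9 and overlapping 14.8% of its exonic bases, held 71, 86 and 92 counts in NC and 124, 102 and 76 in RBM47-OE (log2 fold change 0.20, SE 0.193, edgeR adjusted p = 0.461), which overlapped. KIF1C-AS1 held 9, 13 and 14 counts in NC and 7, 5 and 11 in RBM47-OE (adjusted p = 0.28). The unitary pseudogene KIF28P held 3 to 8 counts per library. KIFBP, a protein that binds and holds back several kinesins, was not called (0.10 on the log2 scale, adjusted p = 0.409), at 3.54, 3.42 and 3.76 FPKM in NC and 3.57, 4.18 and 4.32 FPKM in RBM47-OE. In 7 members at least 10% of exonic bases overlapped another gene, always on the opposite strand. Of these, KIF7 held a mean of 8 counts and overlapped 10.8% of its exons with TICRR, which held a mean of 1303.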
